A study of Mus musculus with 42 samples.

Results

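Amino acid transporters carry amino acids across the plasma membrane and the membranes of lysosomes, and 38 of their genes were followed here in mice given an amino acid mixture or water, in liver, in white fat (WAT, for white adipose tissue) and in brown fat (BAT). The genes were taken from the solute carrier families Slc1, Slc3, Slc6, Slc7, Slc16, Slc36, Slc38 and Slc43, and every probe set annotated to 1 of them alone was used. All 38 genes were measured, by 89 of the 45037 probe sets that are not controls, among 18193 genes that a probe set names alone. The mice were ddY males, purchased at 5 weeks of age, fed freely and housed for 1 week before the treatment. The VAAM group received a 1.8% solution of VAAM, a mixture modelled on the saliva of *Vespa* larvae, and the water group received water, both by feeding tube at 37.5 μL per g of body weight once a day, 5 times. Tissues were collected 4 h after the last administration, after the food had been removed that morning. Each tissue was measured on 1 Affymetrix array per mouse in 7 VAAM mice and 7 water mice, which gives 42 arrays. A group given a casein-like mixture was not analysed here.

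The families differ in substrate and in driving force. Slc1 proteins take up glutamate or exchange small neutral amino acids with the help of sodium. Slc6 proteins move glycine, taurine, betaine and GABA with sodium and chloride. Most Slc7 proteins are light chains that work only when bound to a heavy chain encoded by *Slc3a1* or *Slc3a2*, and exchange one amino acid for another, while a branch of the family carries arginine and lysine on its own. Most Slc36 proteins move small amino acids with protons, and Slc38 proteins move glutamine, alanine and related amino acids with sodium. The proteins of *Slc16a10*, *Slc43a1* and *Slc43a2* let aromatic or large neutral amino acids through by facilitated diffusion. *Slc43a3* is counted with its family, and no substrate is named for it here. In the liver these carriers feed urea formation and glucose synthesis, and several of them are known as targets of ATF4, the transcription factor that responds to amino acid shortage.

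Values were deposited as logarithms whose base the sources used here do not name, and they are read as log2. They were made by the distribution free weighted method (DFW), which compresses the deviations between arrays of a tissue. The spread it left was uneven: in WAT the within-group SD of the members ran from 2.06e-06 to 1.91. Levels and ranges on the deposited scale are therefore not to be read as fold changes. The within-group SD of the members had a median of 2.36e-05 in liver, 0.000271 in WAT and 3.5e-05 in BAT, so a difference between VAAM and water mice is given in units of this SD, ± its standard error, and is not a fold change. The 3 tissues share no common array distribution, with array medians of 6.73 in liver, 6.77 to 6.78 in BAT and 6.91 in WAT, so that tissue and processing cannot be told apart. The tissue labels were checked against marker genes. *Alb*, the serum albumin of hepatocytes, was at 15.0 in liver, 6.57 in BAT and 7.04 in WAT, and *Ucp1*, the uncoupling protein of brown fat, at 14.22 in BAT against 6.36 in WAT. In bulk tissue, fewer cells of a type and less RNA per cell cannot be told apart.

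Each member was placed by the mean of the 7 water mice at its probe set with the highest overall level. The highest tissue was liver for 14 members, WAT for 19 and BAT for 5. The smallest gaps to the next tissue were 0.01, 0.02 and 0.12. Liver was above WAT for 15 of 38 members, beside 37.2% of all probe sets, and BAT above WAT for 11, beside 37.0%. Liver was above BAT for 23 members, beside 44.5% of all probe sets. Most probe sets were thus higher in WAT as well. The VAAM mice gave the same highest tissue for 38 of 38 members. The gap between the highest and the next tissue was over 1 for 8 of the liver members, 6 of the WAT members and 1 of the BAT members. Limma called 38 members different between BAT and WAT, 38 between liver and WAT and 35 between liver and BAT at an adjusted p under 0.05. It also called 99.8%, 99.8% and 99.7% of all probe sets, so these counts say nothing particular of the transporters. The 3 members not called between liver and BAT were the light chain genes *Slc7a5* and *Slc7a9* and the glutamine carrier gene *Slc38a5*. The fit shares 1 estimate of spread over the 3 tissues, and their SDs in water WAT were 0.375, 0.219 and 1.83. In liver and BAT their SDs were at most 9.59e-06, and liver minus BAT was 0.15, −0.08 and −0.01. The missing call therefore does not show that liver and BAT were alike. Over all probe sets the median difference was −0.115 for liver minus WAT and −0.093 for BAT minus WAT, against which the levels below are to be read.

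The widest gaps in liver belonged to a pair of Slc38 carriers. *Slc38a3*, a sodium-coupled glutamine carrier, averaged 13.04 in liver, 7.21 in BAT and 7.14 in WAT. *Slc38a4*, a carrier of small neutral amino acids, averaged 12.18 in liver, 6.44 in BAT and 6.36 in WAT, and its other probe set had the same order of liver over fat. At the sets that represent the genes, both gaps, of 5.84 and 5.73, exceeded those of all other members. The other probe set of *Slc38a3* was also highest in liver but less far apart. It averaged 8.26 in liver, 6.41 in BAT and 6.66 in WAT, a gap of 1.6.

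Of the remaining liver members, *Slc6a13*, a GABA and taurine carrier, averaged 10.64 in liver, 6.42 in BAT and 7.53 in WAT. *Slc7a2*, the arginine and lysine carrier of hepatocytes, averaged 10.46 in liver, 6.43 in BAT and 7.63 in WAT, and was highest in liver at all 4 of its probe sets. *Slc3a1*, a heavy chain gene known from cystine transport in the kidney, averaged 8.32 in liver, 6.24 in BAT and 6.30 in WAT. The betaine carrier *Slc6a12*, the glycine carrier *Slc6a9* and the aromatic amino acid carrier *Slc16a10* were also highest in liver, with gaps of 1.6, 1.14 and 1.04. For *Slc6a9* this rested on 1 of 2 probe sets.

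**Figure D1:**
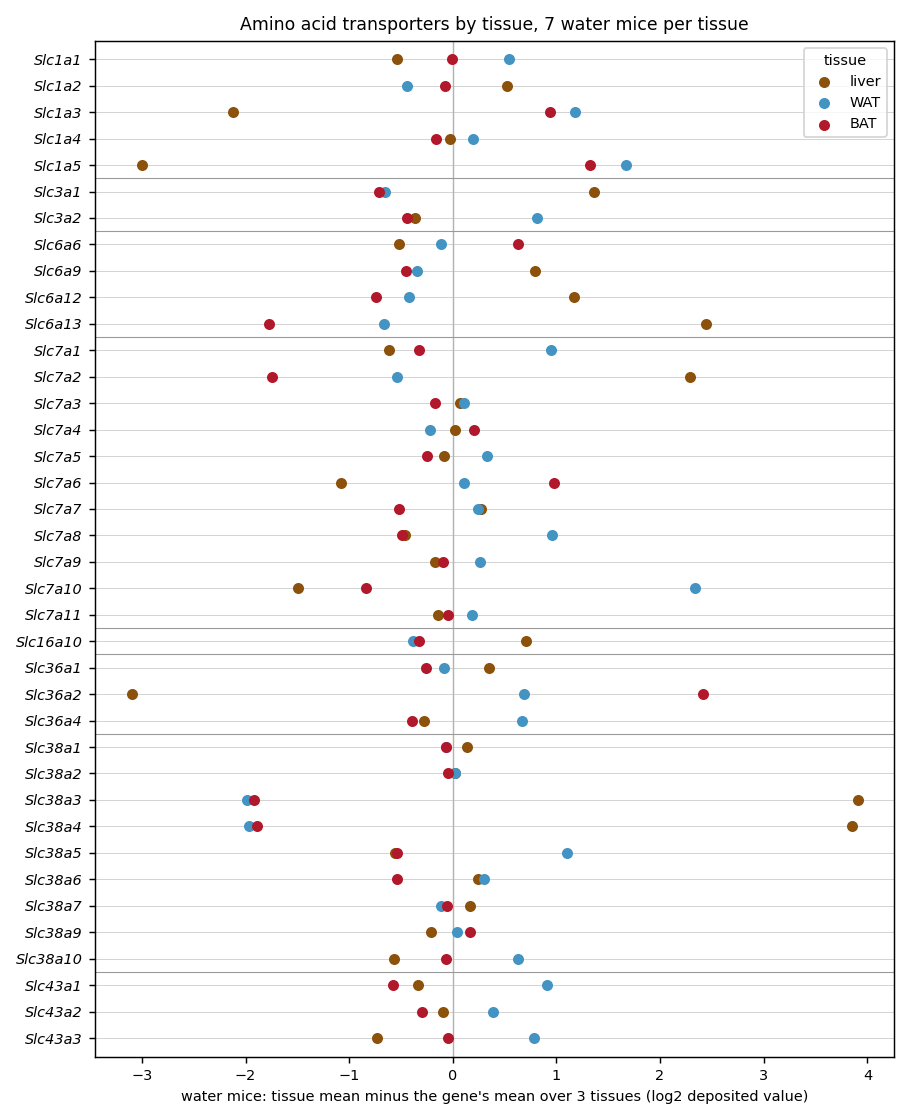
Mean of the 7 water mice in liver, WAT and BAT for each of the 38 members, drawn as the distance from the gene's own mean over the 3 tissues (horizontal axis, log2 deposited value), with lines between Slc families. *Slc38a3* and *Slc38a4* stand far to the right in liver, with gaps of 5.84 and 5.73, while *Slc1a5* and *Slc36a2* stand far to the left there.

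WAT was led by *Slc7a10*, a light chain gene for small neutral amino acids such as serine and glycine, which averaged 10.17 in WAT, 7.0 in BAT and 6.34 in liver. *Slc7a8*, a light chain gene for neutral amino acids, averaged 8.13 in WAT, 6.68 in BAT and 6.71 in liver. *Slc7a1*, an arginine and lysine carrier, averaged 8.23 in WAT, 6.95 in BAT and 6.66 in liver, with the same order at 2 of its 3 probe sets. *Slc43a1*, a carrier of branched-chain amino acids and phenylalanine, averaged 8.84 in WAT, 7.35 in BAT and 7.59 in liver. The heavy chain gene *Slc3a2* followed with a gap of 1.18. *Slc38a5*, whose gap was second to that of *Slc7a10*, averaged 8.06 in WAT, 6.42 in BAT and 6.40 in liver, but its WAT level varied more between mice than that of any other member, and without water mouse 1 its excess over BAT was 1.04 in place of 1.64.

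Fat of both kinds shared some carriers whose values were lower in liver. *Slc1a5*, an exchanger of glutamine and other neutral amino acids, averaged 11.30 in WAT, 10.95 in BAT and 6.63 in liver. Its other probe set kept this order, with BAT nearer to liver, at 9.6 in WAT, 7.85 in BAT and 6.79 in liver. *Slc1a3*, a glutamate carrier, averaged 9.29 in WAT, 9.04 in BAT and 5.99 in liver. *Slc36a2*, a proton-coupled carrier of glycine, alanine and proline, was the member with the largest excess in BAT and averaged 12.11 there, 10.39 in WAT and 6.60 in liver.

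The other BAT members were less far from WAT. *Slc7a6*, a light chain gene for the exchange of arginine against neutral amino acids, averaged 8.86 in BAT, 7.99 in WAT and 6.80 in liver. *Slc6a6*, the taurine carrier, averaged 10.72 in BAT, 9.98 in WAT and 9.57 in liver, yet 2 of its 4 probe sets were highest in liver. For *Slc7a4*, a relative of the cationic carriers, and *Slc38a9*, the lysosomal arginine sensor, the gaps were 0.18 and 0.12. Of their probe sets, 1 of 3 and 1 of 7 were highest in BAT. Of the 22 members with several probe sets, 9 had the same highest tissue at all of them.

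The main question of the study was what VAAM changed. No member passed limma in any tissue: 0 of 38 had an adjusted p under 0.05 in liver, WAT or BAT, where 0.0% of the 45037 probe sets passed, and the smallest adjusted p among members was 0.352, 1 and 0.926. At an unadjusted limma p under 0.05, 3 of 38 members (7.89%) were higher in the liver of VAAM mice and 0 lower, beside 9.09% of all probe sets. In WAT these were 0 members beside 3.76% of all probe sets, and in BAT 2 members (5.26%), both higher, beside 5.1%. The shares of members therefore lay near those of all probe sets or below them. In no tissue did the VAAM and water mice of a member fail to overlap, which happened for 0.155% of all probe sets in liver, 0.0488% in WAT and 0.0955% in BAT.

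The median difference over the 38 members was 0.04 SD in liver, −0.09 in WAT and 0.16 in BAT, beside −0.05, −0.01 and −0.02 over all probe sets. In liver 19 members were higher and 19 lower, in WAT 14 and 24, and in BAT 26 and 12. These splits moved with the scaling: after the arrays were quantile normalized again they were 9 and 29 in liver, 8 and 30 in WAT, and 7 and 31 in BAT. By family, the 9 Slc38 members spanned −0.94 to 1.68 SD in liver (2 higher, 7 lower), −0.88 to 0.99 SD in WAT (2 and 7) and −0.48 to 1.63 SD in BAT (5 and 4). The 11 Slc7 members spanned −0.85 to 0.8 SD in liver (6 and 5), −0.92 to 0.85 SD in WAT (6 and 5) and −0.34 to 1.27 SD in BAT (8 and 3). The 3 Slc36 and 3 Slc43 members were all on the negative side in WAT, between −0.77 and −0.22 SD. *Slc1a3*, *Slc6a6*, *Slc6a12*, *Slc7a1* and *Slc7a4* had positive differences in all 3 tissues, and *Slc1a5*, *Slc7a6*, *Slc36a1*, *Slc38a9* and *Slc38a10* negative ones, none of them past limma.

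**Figure D2:**
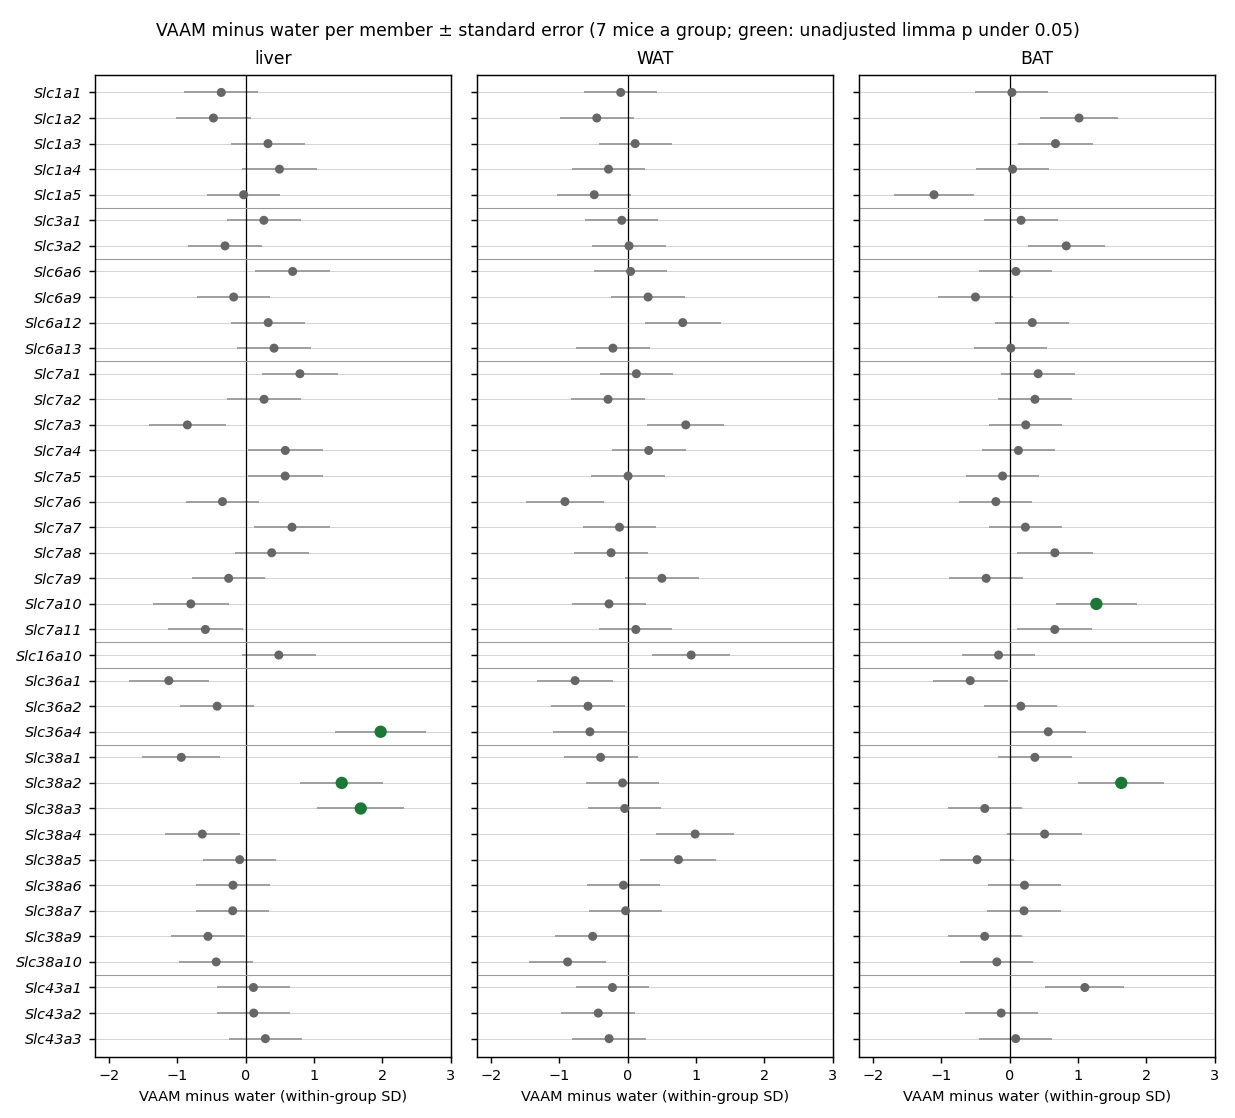
Difference of VAAM minus water mice (horizontal axis, within-group SD) with its standard error for the 38 members in liver, WAT and BAT, 7 mice a group, with green points for an unadjusted limma p under 0.05. The green points are *Slc36a4*, *Slc38a2* and *Slc38a3* in liver and *Slc7a10* and *Slc38a2* in BAT, and WAT has none.

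In liver the highest member was *Slc36a4*, a carrier of proline and tryptophan. Measured from the water mean, the VAAM mice lay at 0.51, 2.2 and 3.0 SD (lowest, median, highest) and the water mice at −1.08, 0.25 and 1.97 SD. The water median was exceeded by 7 of 7 VAAM mice and the highest water mouse by 4, so the groups overlapped in part. The difference was 1.98 ± 0.67 SD (n = 7 each, exact permutation p 0.00524, limma adjusted p 0.352). After the arrays were quantile normalized again it was −0.20 SD, so its direction rests on the scaling.

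*Slc38a3*, the glutamine carrier highest in liver, lay at −0.14, 1.63 and 2.59 SD in VAAM mice and at −1.56, 0.25 and 1.87 SD in water mice. VAAM mouse 4 stood apart as the lowest of its group, and 6 of 7 VAAM mice lay above the water median. The difference was 1.68 ± 0.636 SD (n = 7 each, exact permutation p 0.0122, limma adjusted p 0.403), and 0.53 SD after quantile normalization. The other probe set of the gene gave 1.14 ± 0.583 SD.

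*Slc38a2*, a sodium-coupled carrier of alanine, glutamine and other small amino acids whose transcription is known to rise in amino acid shortage, lay at −0.04, 1.20 and 2.62 SD in VAAM livers and at −0.97, −0.26 and 2.24 SD in water livers. Water mice 4, 6 and 7 lay within the range of the VAAM mice, and without water mouse 6, the highest of them, the difference was 2.38 SD. With all mice it was 1.41 ± 0.607 SD (n = 7 each, exact permutation p 0.028, limma adjusted p 0.473). The other probe sets of the gene gave 1.49 ± 0.615 and 1.04 ± 0.576 SD, so the 3 sets had the same direction in liver, and quantile normalization left 1.52 SD.

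The lowest liver members were *Slc36a1*, a proton-coupled carrier of lysosomes and brush borders, at −1.12 ± 0.582 SD, *Slc38a1*, a system A glutamine carrier, at −0.94 ± 0.57 SD, and the cationic carrier *Slc7a3* at −0.85 ± 0.562 SD. Their exact permutation p values were 0.0577, 0.103 and 0.142 (n = 7 each). Probe sets of 1 gene did not always go the same way. For *Slc43a2*, a carrier of large neutral amino acids, 1 set gave −2.02 ± 0.675 SD, another 1.16 ± 0.584 SD, and the set with the highest level 0.12 ± 0.535 SD. *Slc7a2* was at 0.27 ± 0.537 SD at the set that represents it and at 1.31 ± 0.597 SD at another.

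In BAT *Slc38a2* was again the highest member. The VAAM mice lay at 0.13, 1.28 and 3.79 SD from the water mean and the water mice at −1.34, 0.02 and 0.86 SD. Every VAAM mouse exceeded the water median, and 5 exceeded the highest water mouse. The difference was 1.63 ± 0.63 SD (n = 7 each, exact permutation p 0.00641, limma adjusted p 0.926). The other probe sets gave 0.66 ± 0.551 and −0.57 ± 0.547 SD, and quantile normalization turned the difference to −0.24 SD. In WAT the same gene was at −0.07 ± 0.535 SD, and 4 of 7 VAAM mice exceeded the median of the water mice.

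*Slc7a10*, the small neutral amino acid exchanger that led in WAT, lay at 0.07, 0.71 and 3.44 SD in VAAM BAT and at −0.93, 0.42 and 0.92 SD in water BAT. The water median was exceeded by 6 of 7 VAAM mice and the highest water mouse by 3, with overlap in the rest. The difference was 1.27 ± 0.594 SD (n = 7 each, exact permutation p 0.035, limma adjusted p 0.946), and 1.20 SD after quantile normalization. In WAT, where its level was higher, the difference was −0.27 ± 0.537 SD.

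*Slc43a1*, a carrier of branched-chain amino acids, followed in BAT at 1.10 ± 0.58 SD (n = 7 each, exact permutation p 0.0688), and 5 VAAM mice lay above every water mouse while 1 lay below all of them. The lowest BAT members were *Slc1a5* at −1.11 ± 0.58 SD, *Slc36a1* at −0.58 ± 0.547 SD and the glycine carrier *Slc6a9* at −0.50 ± 0.544 SD, with exact permutation p values of 0.06, 0.291 and 0.368 (n = 7 each). Leaving out 1 array took *Slc36a1* to between −0.95 SD (without water mouse 2) and −0.36 SD (without VAAM mouse 7), with −0.37 SD without VAAM mouse 4. It took *Slc6a9* to −1.04 SD without VAAM mouse 1, −0.82 SD without VAAM mouse 5, −0.30 SD without VAAM mouse 4 and −0.27 SD without VAAM mouse 3. For *Slc1a5*, 5 VAAM mice lay below every water mouse and 1 lay above all of them. The summed signal of other tissues varied in BAT too: the mean of 6 skeletal muscle markers ran over 6.74 to 11.63 in VAAM BAT and 6.9 to 11.91 in water BAT, so the groups overlapped. The mean of 5 hepatocyte markers lay at 7.208 to 7.223 in VAAM BAT against 7.192 to 7.215 in water BAT (exact permutation p 0.00816, n = 7 each). Of these 5, 3 were higher and 2 lower with a median of 0.07 SD, and only *Cyp2e1*, whose level was 13.78 in WAT, had an unadjusted limma p under 0.05, while *Alb*, *Apoa1*, *Ttr* and *Fgb* lay at 6.17 to 6.85 in BAT. The mean of 4 adipocyte markers lay at 10.485 to 10.494 in VAAM BAT against 10.483 to 10.489 in water BAT (exact p 0.0332). The part of these in the BAT differences was not tested.

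**Figure D3:**
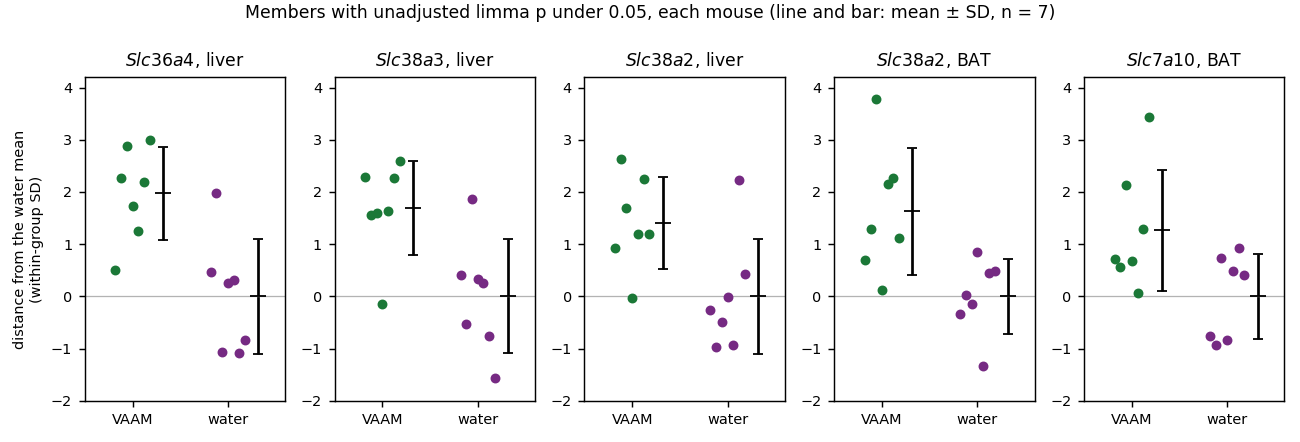
Each mouse's distance from the water mean (vertical axis, within-group SD) for the members with an unadjusted limma p under 0.05 in liver and BAT, with the VAAM mice on the left, the water mice on the right, and the mean ± SD of 7 mice beside them. In every panel at least 1 water mouse reaches into the range of the VAAM mice.

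Whether the response differed between the tissues was tested with limma on values scaled to unit SD, and 0 of 38 members passed at an adjusted p under 0.05, beside 0.349% of all probe sets. The smallest adjusted p was 0.208, for *Slc36a4*. At an unadjusted p under 0.05, *Slc36a4*, *Slc38a3*, *Slc7a10* and *Slc38a2* passed, beside 9.47% of all probe sets. The scaling used SDs estimated from the same mice, which makes these p values too small.

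The members known as targets of ATF4 were described as a list of 10, chosen with earlier results of these data in view. In liver 5 were higher and 5 lower with a median of 0.04 SD, in WAT 6 and 4 with 0.01 SD, and in BAT 7 and 3 with 0.33 SD. *Slc38a2* was the only one of the 10 with an unadjusted limma p under 0.05. The cystine and glutamate exchanger gene *Slc7a11* was at −0.59, 0.12 and 0.66 SD in liver, WAT and BAT, its partner heavy chain *Slc3a2* at −0.30, 0.02 and 0.83 SD, and the large neutral amino acid exchanger *Slc7a5* at 0.58, 0.01 and −0.10 SD. *Slc1a4*, an exchanger of alanine, serine and cysteine, was at 0.50, −0.28 and 0.04 SD. *Slc7a1* was positive in all 3 tissues, at 0.80, 0.13 and 0.42 SD.

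The promoter of *Slc38a2* is shown because this gene was highest among the ATF4 members in both liver and BAT, and windows from *Slc7a11* and *Slc1a4* because they hold the response element TGATGNAA (or TTNCATCA on the other strand), which is given in capitals. The sequences are from RefSeq on GRCm38.p6, cover chr15:96699679-96699978, chr3:50443637-50443695 and chr11:20332694-20332733, and are written along the gene's strand, which is the minus strand for all of them.
Slc38a2: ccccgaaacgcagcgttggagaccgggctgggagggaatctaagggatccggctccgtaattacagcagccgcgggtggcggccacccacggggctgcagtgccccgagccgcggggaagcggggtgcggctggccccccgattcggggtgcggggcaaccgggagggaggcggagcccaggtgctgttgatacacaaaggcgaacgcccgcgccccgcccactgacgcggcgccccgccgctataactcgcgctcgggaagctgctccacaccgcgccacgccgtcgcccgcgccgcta
Slc7a11: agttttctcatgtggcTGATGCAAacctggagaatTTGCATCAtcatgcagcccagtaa
Slc1a4: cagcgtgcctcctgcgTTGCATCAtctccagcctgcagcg
The windows searched run from 250 bases before to 50 bases after each start, and 46 of them belong to 28 members. The element was found in *Slc7a11* with 2 copies, which begin 66 and 47 bases before the start, in *Slc1a4*, 4 bases before it, and in *Slc7a7*, a light chain gene for cationic amino acids. It occurs in 3.97% of the 32851 promoters. The *Slc38a2* window does not hold these letters, which says nothing of sites outside it. *Slc7a11* and *Slc1a4* both hold the element, and neither passed an unadjusted limma p of 0.05 in any tissue. In liver, WAT and BAT of water mice *Slc7a11* averaged 6.31, 6.64 and 6.41, and *Slc1a4* 6.72, 6.94 and 6.59. These levels are near or below the array medians and cannot be told from background. The part of ATF4 was not tested.

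In WAT the members with positive differences were led by *Slc38a4* at 0.99 ± 0.571 SD, *Slc16a10* at 0.93 ± 0.567 SD and *Slc7a3* at 0.85 ± 0.562 SD, and in each case 6 of 7 VAAM mice exceeded the median of water mice. The lowest were *Slc7a6* at −0.92 ± 0.566 SD, *Slc38a10*, a less studied Slc38 member, at −0.88 ± 0.564 SD, and *Slc36a1* at −0.77 ± 0.557 SD. Exact permutation p values were 0.0787, 0.0291 and 0.139 for the positive and 0.101, 0.118 and 0.181 for the negative differences (n = 7 each). *Slc16a10* ranged over 7.487 to 7.563 in VAAM WAT (median 7.500) and 7.475 to 7.499 in water WAT (median 7.490), and 5 VAAM mice lay above every water mouse. Its level followed the epididymis markers described below in VAAM mice by Pearson r (0.96, exact permutation adjusted p 0.0077, 0.86 without the 2 farthest mice). By rank the relation was weaker (Spearman rho 0.82, exact permutation adjusted p 0.1023). It was not clear in water mice (r 0.08, exact adjusted p 0.776). Without mice 1 and 2 of both groups its difference was 0.91 SD (n = 5 each, exact permutation p 0.19). Quantile normalization turned *Slc38a4* to −0.14 SD and *Slc7a3* to −0.71 SD.

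WAT stood apart from the other tissues by its spread between mice. Of the 89 member probe sets, 6 (6.74%) ranged over more than 0.1 between the 14 WAT arrays, and none did in liver or BAT, where 0.881%, 0.204% and 0.473% of all probe sets did in WAT, liver and BAT. The members were *Slc38a5*, *Slc1a1*, *Slc7a5*, *Slc7a9* and *Slc7a1*. *Slc38a5* was at 13.63, 10.21, 9.09, 8.87, 8.29, 8.54 and 7.74 in VAAM mice 1 to 7, and at 11.70, 9.39, 7.24, 7.13, 7.22, 6.92 and 6.81 in water mice 1 to 7. Mice 1 and 2 were the highest in both groups, and the other VAAM mice lay above the other water mice.

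Markers of the epididymis, which lies against a fat pad of the male mouse, moved with some of these genes in the WAT arrays. The mean of 5 such markers was 13.63, 10.47, 8.95, 8.86, 8.29, 8.83 and 8.02 in VAAM mice 1 to 7 and 11.73, 10.36, 7.54, 7.19, 7.35, 7.33 and 7.18 in water mice 1 to 7. It lay at 6.48 in BAT and 6.66 in liver. *Lcn5*, an epididymal lipocalin, ranged over 9.91 to 18.94 in VAAM WAT and 6.32 to 11.06 in water WAT (exact permutation p 0.00175, n = 7 each), while *Lcn8* ranged over 7.96 to 13.21 in VAAM WAT and 8.01 to 13.39 in water WAT (exact p 0.909). The labels do not name the fat pad.

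Within each group of 7, *Slc38a5* followed the marker mean with a Pearson r of 1.0 in VAAM mice (Spearman rho 1.0, exact permutation p 0.000198 and 0.000397) and 0.99 in water mice (rho 0.96, exact p 0.00258 and 0.00278). Without the 2 mice farthest from the marker median, r was 0.95 in VAAM mice and 0.63 in water mice. For *Slc7a5* r was 0.96 in VAAM mice and 1.0 in water mice, and without the 2 farthest mice 0.87 in VAAM and 0.44 in water mice. Its rho was 1.0 in VAAM and 0.79 in water mice (exact permutation adjusted p 0.0024 and 0.1152). *Slc1a1*, a glutamate and cysteine carrier, had r of 0.95 in VAAM and 0.97 in water mice, but 0.2 in VAAM and −0.7 in water mice without the 2 farthest mice, so that its relation rests on those mice. Its rho was 0.54 in VAAM and 0.36 in water mice (exact permutation adjusted p 0.354 and 0.4844). *Slc7a9*, the cystine light chain, had r of 0.12 in VAAM and 0.48 in water mice. These belong to 12 correlations, of which *Slc38a5* in VAAM mice had an adjusted p of 0.0012 for r (exact permutation) and *Slc38a5* in water mice 0.0077.

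**Figure D4:**
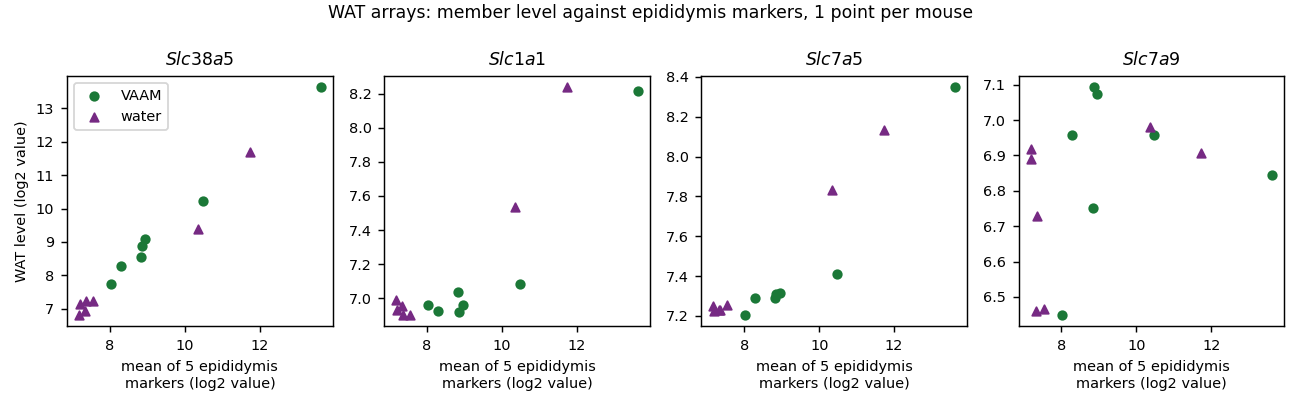
WAT level of *Slc38a5*, *Slc1a1*, *Slc7a5* and *Slc7a9* (vertical axes, log2 deposited value) against the mean of 5 epididymis markers (horizontal axis, log2 deposited value), with 1 point for each of 7 VAAM (circles) and 7 water mice (triangles). *Slc38a5* climbs with the markers along the whole range, *Slc1a1* is high in a few mice only, and *Slc7a9* shows no such line.

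Over all 14 mice the difference of *Slc38a5* was 0.74 ± 0.556 SD (9.48 ± 1.99 in VAAM and 8.06 ± 1.83 in water mice, SD, n = 7 each, exact permutation p 0.2, limma adjusted p 1). Without mice 1 and 2 of both groups, the arrays with the highest epididymis markers, the VAAM mice lay at 7.74 to 9.09 and the water mice at 6.81 to 7.24. The difference was then 3.64 SD (n = 5 each, exact permutation p 0.00794, the smallest that 252 splits allow, limma adjusted p 0.424). This choice of arrays was made after seeing the data. It was made by the mean of the 5 epididymis markers, which *Slc38a5* follows, so SDs and p values in the mice kept depend on the choice. In the mice kept, the markers *Lcn5* and *Defb15* differed by 8.14 and 8.35 SD (limma adjusted p 0.0117 for both). For *Lcn5* the difference on the deposited scale was 5.44 with all mice and 4.75 in the mice kept, while in SD it was 2.16 and 8.14. The markers *Adam7*, *Lcn9* and *Lcn8* differed by 3.0, 0.81 and 0.45 SD (limma adjusted p 0.58, 0.9 and 0.95). *Slc7a5* was then at 1.35 SD and *Slc7a1* at 1.28 SD, with limma adjusted p values of 0.855 and 0.863. The part of epididymal tissue in these values was not tested.

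*Slc38a5*, the member with the widest spread, has 1 promoter window, at chrX:8271131-8271430 on the plus strand of GRCm38.p6 (RefSeq), shown with the E-box CACGTG in capitals. This motif begins 30 bases before the start and is found in 7.15% of all promoters.
Slc38a5: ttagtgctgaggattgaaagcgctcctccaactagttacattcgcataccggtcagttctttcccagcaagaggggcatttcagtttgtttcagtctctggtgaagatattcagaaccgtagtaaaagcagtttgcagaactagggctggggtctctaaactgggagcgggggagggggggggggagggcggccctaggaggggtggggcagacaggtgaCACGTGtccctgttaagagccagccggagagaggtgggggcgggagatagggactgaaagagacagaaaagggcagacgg

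Rank products, the test that the study's methods name, ranks values on the deposited scale and called members in every tissue at a false discovery rate under 0.05. In liver it called 4 higher (*Slc3a1*, *Slc7a2*, *Slc36a4* and *Slc38a2*) and 1 lower, the glutamate carrier gene *Slc1a2*. This was 13.2% of members, beside 4.16% of all probe sets. In BAT it called *Slc1a3*, *Slc7a10*, *Slc38a2* and *Slc43a1* higher, 10.5% of members, beside 4.44%. In WAT it called 9 members (23.7%), beside 3.49% of all probe sets. Of these, 7 were called higher, among them *Slc38a5*, *Slc7a5*, *Slc7a9* and *Slc7a1*, *Slc7a10* was called lower, and *Slc1a1* was called in both directions. After scaling to unit SD it called *Slc36a4* in liver and no member in WAT or BAT. Over all 45037 probe sets the scaled test called 226 higher and 179 lower in liver, 36 and 39 in WAT, and 96 and 54 in BAT. Several of the called members had small differences against their spread, such as *Slc7a5* in WAT at 0.01 SD and *Slc1a2* in liver at −0.47 SD. The median within-group SD was 2.36e-05, 0.000271 and 3.5e-05 for members in liver, WAT and BAT. Over all probe sets it was 1.06e-05, 1.41e-05 and 1.06e-05. The unscaled test ranks differences on the deposited scale, so its shares of members and of all probe sets are not a like comparison.

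Genes around the transporters were described in the same way. Of 31 other amino acid transporter genes that were matched, 0 were higher and 2 lower in liver at an unadjusted limma p under 0.05, 1 and 0 in WAT, and 1 and 2 in BAT, beside 9.09%, 3.76% and 5.1% of all probe sets in either direction. *Slc6a14*, a broad carrier of neutral and cationic amino acids, was at 2.0 ± 0.673 SD in BAT, and *Slc25a44*, the mitochondrial carrier of branched-chain amino acids, at −1.51 ± 0.617 SD there. Of 26 amino acid response genes, 2 were higher and 1 lower in liver at this threshold, a share near the 9.09% of all probe sets. *Atf4* itself was at 1.31 ± 0.598 SD and the seryl-tRNA synthetase gene *Sars* at 1.67 ± 0.634 SD, while *Phgdh*, the first enzyme of serine synthesis, was at −1.55 ± 0.621 SD. *Asns*, the asparagine synthetase gene that ATF4 is known to induce, was at −0.28 ± 0.538 SD, and *Ddit3* at −0.03 ± 0.535 SD.

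Among 11 genes of trafficking and sensing, the kinase gene *Sgk1*, whose product is known to raise the surface level of several transporters, had the largest liver difference, at 2.46 ± 0.734 SD, and 7 of 7 VAAM mice exceeded the median of water mice (limma adjusted p 0.33). It was at 0.82 ± 0.56 SD in WAT and 1.07 ± 0.578 SD in BAT. *Lamtor1*, a lysosomal anchor of amino acid sensing, was at −1.81 ± 0.65 SD in liver, and 0 of 7 VAAM mice exceeded the median of water mice. *Mtor*, the kinase that is switched on by amino acids, was at −1.73 ± 0.64 SD in BAT with 0 of 7 above it (limma adjusted p 0.926). None of the genes in these lists passed limma over all probe sets.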

How the data were processed

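RNA from each tissue was amplified and hybridized to Affymetrix mouse genome arrays. The authors summarized the arrays by DFW (R 2.7.2 in the submitters' processing notes). The deposited log values per probe set, read as log2, were used unchanged, without a filter on low values and without detection calls. Of 45101 probe sets, 64 controls were left out. Where several probe sets name a gene alone, the one whose mean over 42 arrays was highest stood for the gene.

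Groups were compared within a tissue with limma 3.58.1 in R 4.3.3 (Benjamini-Hochberg over 45037 probe sets, 0.05), with two-sided exact permutation tests over all 3432 splits (smallest p 0.000583) and with rank products over 49 pairs of arrays and 50 permutations (Python 3.11.15). Limma and rank products were also run on simulated data. For rank products these data had equal spread in all rows, so that check says nothing of the uneven spread found here. The 7 arrays a group limit the precision. Named members were those with an unadjusted limma p under 0.05, the 3 highest and 3 lowest in each tissue, the 5 with the widest gap for each tissue and the ATF4 list. Genes named outside this rule (the members with wide spread in WAT and the genes of the further lists) were chosen after their values had been seen. The members, lists and rules were chosen with earlier results of these data known.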

Additional observations from a re-analysis of the deposited data

Results flagged for a closer look

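In 46 groups of 7 mice, those of the named members and of the members with a wide spread in WAT, 9 held a mouse whose gap to its neighbour, as a share of the group's range, exceeded Dixon's critical value. Chance alone gives about 1 in 20 groups that are independent and not chosen by their values. The groups here were chosen partly for wide spread or large differences, and several share the same array. The count of 9 therefore cannot be held against that rate. In WAT, VAAM mouse 1 was far above the others for *Slc1a1* (a share of 0.872), *Slc7a1* (0.865), *Slc7a5* (0.82), *Slc16a10* (0.789) and *Slc38a5* (0.58), and this mouse also had the highest mean of the epididymis markers. VAAM mouse 4 was the lowest for *Slc7a3* in WAT (0.616) and for *Slc38a3* in liver (0.625). Water mouse 4 was the highest for *Slc7a3* in liver (0.575), and water mouse 2 the lowest for *Slc36a1* in BAT (0.662).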

How the results depend on the processing

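The counts of members called between VAAM and water mice stayed at 0 in each tissue under a replicate block (0 in liver, WAT and BAT), quantile normalization, the filter on low values, another prior, array weights and the mean of probe sets, when the 4 WAT arrays with the highest epididymis markers were left out (chosen after seeing the data), and when any 1 array was left out (0 to 0). Tissue counts with 1 array left out were 38 for BAT or liver against WAT and 35 to 36 for liver against BAT. A fit over the 42 arrays called 1 member in liver and 0 in WAT and BAT. Over all 45037 probe sets this fit called 326 higher and 365 lower in liver, 67 and 62 in WAT, and 101 and 214 in BAT. Rank products called 5 members in liver, 9 in WAT and 4 in BAT (13.2%, 23.7% and 10.5%), beside 4.16%, 3.49% and 4.44% of all probe sets. After scaling to unit SD they called 1 member in liver, beside 226 probe sets called higher and 179 lower. Same-numbered VAAM and water arrays had deviations that correlated above 0.1 in 2 of 7 pairs in liver, 3 in WAT (highest r 0.544) and 3 in BAT. Of the VAAM arrays, 1, 3 and 3 correlated best with their own number, so the numbers were not taken as pairs. Between BAT and WAT, 6 of 7 VAAM and 5 of 7 water arrays correlated best with their own number. Between liver and WAT these were 4 and 4, and between liver and BAT 5 and 5. The tissue comparisons and the test of a response differing between tissues treated the arrays as independent. With a replicate block the tissue comparisons called 38 members for BAT or liver against WAT and 35 for liver against BAT. Quantile normalization reversed *Slc36a4* in liver (−0.20), *Slc38a2* in BAT (−0.24), *Slc7a3* (−0.71) and *Slc38a4* (−0.14) in WAT, and the WAT minus liver difference of *Slc7a3* (−0.115). The mean of probe sets reversed the gaps of *Slc7a4* (−0.026), *Slc38a9* (−0.205), *Slc7a11* (−0.024) and *Slc38a2* (−0.007). The cause was not tested. Over all probe sets, quantile normalization moved the liver split at an unadjusted p under 0.05 from 1878 higher and 2218 lower to 310 and 3000, and BAT against WAT from 16634 and 28296 called to 23448 and 21372. Among the members, BAT against WAT moved from 11 higher and 27 lower to 15 and 23. Leaving out VAAM mouse 1 took *Slc1a5* in BAT to −1.86 SD, and leaving out VAAM mouse 5 took *Slc43a1* in BAT to 1.77 SD, both without a limma call. Without VAAM mouse 4 *Slc7a3* in WAT was at 1.68 SD. The values hold no detection call, so low members cannot be told from background.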
